A study of Mus musculus with 18 samples.

Results

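The genes described here are 34 symbols of the hypoxia response and of glycolysis, read in bulk RNA-seq libraries of whole mouse islets, the clusters of endocrine cells in the pancreas. They were chosen by gene symbol: 3 oxygen-sensing hydroxylases, 2 subunits of the hypoxia-inducible factors (HIF), 12 hypoxia target genes, 2 glucose transporters and 15 enzymes of glycolysis. One symbol, Aldoa, matched 2 features in the tables, so that 35 features of 53801 listed mouse genes were followed, and all 35 passed the filter on low counts. The 18 libraries came from mice aged 5 weeks and kept on normal chow, in 4 groups: 4 male S64F/+, 4 male WT, 5 female S64F/+ and 5 female WT. S64F/+ mice carry 1 copy of the S64F substitution in MafA, which activates the insulin genes and other genes of mature beta cells, and WT mice carry the wild-type gene. The labels name no other allele, no treatment and no promoter or Cre driver, and each library mixes all cells of the islet. They do not state whether replicates of a group came from separate animals or pools, so that the p-values measure the spread between these libraries.

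Cells read oxygen through the prolyl hydroxylases Egln1, Egln2 and Egln3, which mark the HIF alpha subunits for degradation when oxygen is present. When oxygen is scarce, HIF1-alpha (encoded by Hif1a) and HIF2-alpha (encoded by Epas1) escape this mark and switch on genes for glucose uptake, glycolysis, blood vessel growth and restraint of mitochondrial pyruvate use. Egln3 is itself a classic HIF target. Beta cells couple glycolysis to mitochondrial oxidation for insulin secretion, and islets are densely supplied with capillaries.

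RefSeq promoter windows (GRCm38.p6, from 250 bases before to 50 bases after the annotated start, on the strand of the gene) were found for 31 of the 34 symbols. Slc2a3, Epas1 and Ndrg1 had none in the table. Where a gene had several windows, as Pdk1 (2) and Pfkm (4) did, only the window nearest the annotated outer start of the gene was used. The windows of Hif1a and Ankrd37 lay 6492 and 5857 bases from that start. Other starts of these genes were not searched. The 4 windows shown belong to the genes that were called in the same direction in both sexes, Egln3 and Gpi1 upward and Pdk1 and Pfkm downward. Capitals mark the 5-letter core of the HIF binding element, ACGTG or GCGTG, searched on both strands, so that CACGT and CACGC are its reverse complements. The Egln3 window lies at chr12:54203825-54204124 on the minus strand, the Gpi1 window at chr7:34230287-34230586 on the minus strand, the Pdk1 window at chr2:71872974-71873273 on the plus strand and the Pfkm window at chr15:98092339-98092638 on the plus strand.
Egln3: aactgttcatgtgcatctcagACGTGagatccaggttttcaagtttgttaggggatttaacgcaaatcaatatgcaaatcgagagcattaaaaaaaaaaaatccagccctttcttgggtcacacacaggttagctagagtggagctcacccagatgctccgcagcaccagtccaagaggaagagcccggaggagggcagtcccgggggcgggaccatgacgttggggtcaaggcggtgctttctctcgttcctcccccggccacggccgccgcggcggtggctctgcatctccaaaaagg
Gpi1: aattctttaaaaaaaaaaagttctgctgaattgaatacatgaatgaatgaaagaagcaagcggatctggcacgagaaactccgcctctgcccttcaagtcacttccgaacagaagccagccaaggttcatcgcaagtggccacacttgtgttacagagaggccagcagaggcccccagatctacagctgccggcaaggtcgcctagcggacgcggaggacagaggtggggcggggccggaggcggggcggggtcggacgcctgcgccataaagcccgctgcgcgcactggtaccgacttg
Pdk1: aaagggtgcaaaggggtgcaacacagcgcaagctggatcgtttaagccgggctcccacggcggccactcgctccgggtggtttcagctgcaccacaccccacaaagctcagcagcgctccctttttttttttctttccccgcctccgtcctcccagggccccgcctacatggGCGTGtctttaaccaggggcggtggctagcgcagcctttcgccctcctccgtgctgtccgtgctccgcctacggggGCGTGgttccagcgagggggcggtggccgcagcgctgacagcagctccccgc
Pfkm: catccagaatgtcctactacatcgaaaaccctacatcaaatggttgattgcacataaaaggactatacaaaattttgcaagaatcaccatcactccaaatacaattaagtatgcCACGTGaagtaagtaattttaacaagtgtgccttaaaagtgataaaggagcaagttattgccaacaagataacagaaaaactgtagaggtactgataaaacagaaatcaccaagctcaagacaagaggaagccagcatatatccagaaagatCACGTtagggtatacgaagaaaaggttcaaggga
The Egln3 window held 1 core, an ACGTG whose first base lies at position -229 from the start. The Gpi1 window held none, the Pdk1 window held 2 GCGTG cores, and in the Pfkm window a palindromic CACGTG counted on both strands and a further CACGT gave 3 matches to ACGTG. Over all 31 member windows, 24 (77.4%) held at least 1 core of either spelling, against 43.8% of all 32851 windows in the table. ACGTG was found in 58.1% of member windows, against 19.6% of all windows. GCGTG was found in 54.8% of member windows, against 32.4% of all windows. The letters TGCTGAC, the core of the element bound by MAF proteins, were in 0 of the 31 member windows, against 4.67% of all windows. These are matches of letters and say nothing of binding in these islets.

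Library totals ran between 19317971 and 108659014 counts, and libraries of 1 group correlated at 0.960 to 0.988 across genes. Mafa averaged 196.8 ± 52.3 CPM (counts scaled by the library total after adjustment with trimmed means of M values, TMM) in male S64F/+ and 905.2 ± 80.8 in male WT islets (SD, n = 4 each), and 159.7 ± 49.8 in female S64F/+ and 639.3 ± 117 in female WT islets (SD, n = 5 each). The 2 insulin genes took 13.1% to 13.8% of the counts in male S64F/+ libraries, against 19.9% to 23.5% in male WT libraries. In females these shares overlapped, at 12.7% to 20.8% in S64F/+ and 15.7% to 25.9% in WT libraries. Summed markers of endothelial cells ran from 931 to 1106 CPM in male S64F/+ and from 488 to 682 CPM in male WT islets, and those of stellate cells and fibroblasts from 1417 to 2231 CPM in male S64F/+ and from 162.5 to 429 CPM in male WT islets. Beta-cell markers summed to between 126000 and 140300 CPM in male S64F/+ and between 210900 and 288200 CPM in male WT islets. Ductal markers summed to between 707.8 and 840.6 CPM in male S64F/+ and between 460.7 and 481.9 CPM in male WT islets, and Schwann cell markers to between 41.5 and 54.3 CPM in male S64F/+ and between 18.4 and 25.1 CPM in male WT islets. In females, alpha-cell markers ran from 59790 to 82880 CPM in S64F/+ and from 34100 to 42380 CPM in WT islets, delta-cell markers from 6046 to 8194 CPM in S64F/+ and from 2721 to 4202 CPM in WT islets, and ductal markers from 519.5 to 592.2 CPM in S64F/+ and from 446.7 to 505.8 CPM in WT islets, each with no overlap. In whole islets, fewer cells of a type and less RNA per cell cannot be told apart.

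Levels are compared between genes per kilobase of exon. Pkm, the last enzyme of glycolysis in most tissues, averaged 147.0 CPM per kilobase in male S64F/+ and 151.1 in male WT islets, and Aldoa, which splits fructose 1,6-bisphosphate, averaged 129.4 in male S64F/+ and 121.8 in male WT islets. Vegfa, which encodes the growth factor that maintains islet capillaries, came next at 108.5 CPM per kilobase in male S64F/+ and 108.2 in male WT islets. Among the hydroxylases the order in male WT islets was Egln2 at 26.22 ± 2.43, Egln1 at 16.09 ± 0.485 and Egln3 at 0.406 ± 0.164 CPM per kilobase (SD, n = 4), and the ranges of neighbours in this order did not overlap. In male S64F/+ islets the order was the same, but Egln3 reached 5.86 ± 2.27 CPM per kilobase, against 13.4 ± 0.849 for Egln1 (SD, n = 4). Hk2, the insulin-regulated hexokinase of muscle and fat, averaged 0.234 CPM per kilobase in male S64F/+ and 0.134 in male WT islets, and Adm averaged 0.486 in male S64F/+ and 0.0731 in male WT islets.

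In male islets, Egln3 and the vasodilator peptide gene Adm rose several-fold, and Slc2a3, Epas1, Pfkfb3, Pfkp and Gpi1 rose by less. The 6 genes Egln1, Hif1a, Pdk1, Ndrg1, Pfkl and Pfkm were slightly lower. In the quasi-likelihood test of edgeR with Benjamini-Hochberg adjustment over all 18364 genes tested, at an adjusted p under 0.05, 7 of 35 features (20%) were higher in male S64F/+ than in male WT islets and 6 (17.1%) were lower. Of all genes tested, 15.4% were higher and 12.3% lower in the same contrast (27.6% in either direction), so that the shares among the members were near those of all genes. The median log2 fold change was 0.02 over the 35 features and -0.03 over all genes. By role, 2 of the 5 hydroxylases and HIF subunits rose and 2 fell, 1 of 12 hypoxia targets rose and 2 fell, 1 of 2 glucose transporters rose, and 3 of 16 glycolytic features rose and 2 fell.

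In female islets, Egln3, Tpi1 and Gpi1 were higher in S64F/+ than in WT, and Pdk1 and Pfkm were lower. That is 3 of 35 features higher (8.57%, against 10.2% of all genes) and 2 lower (5.71%, against 11% of all genes), with a median log2 fold change of -0.00 over the features and 0.02 over all genes. Both shares lay below those of all genes tested, of which 21.2% changed in either direction. Egln3, Gpi1, Pdk1 and Pfkm were called in the same direction in both sexes. In the same female contrast 6 of 6 alpha-cell, 4 of 4 delta-cell and 2 of 2 PP-cell markers were higher and 6 of 8 beta-cell markers were lower, and in the male contrast 7 of 8 beta-cell markers were lower and 3 of 4 delta-cell, 5 of 8 ductal and 3 of 7 Schwann cell markers were higher. Of 10 macrophage markers, 6 were higher and 1 lower in males and 5 were higher in females, where 3 of 8 ductal markers were also higher. Acinar markers, with 0 of 7 called in either sex, summed to between 2646 and 25970 CPM within male WT libraries. No marker was at 0 in all libraries of a group, and the part of these cell types in the members' values was not tested.

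**Figure D1:**
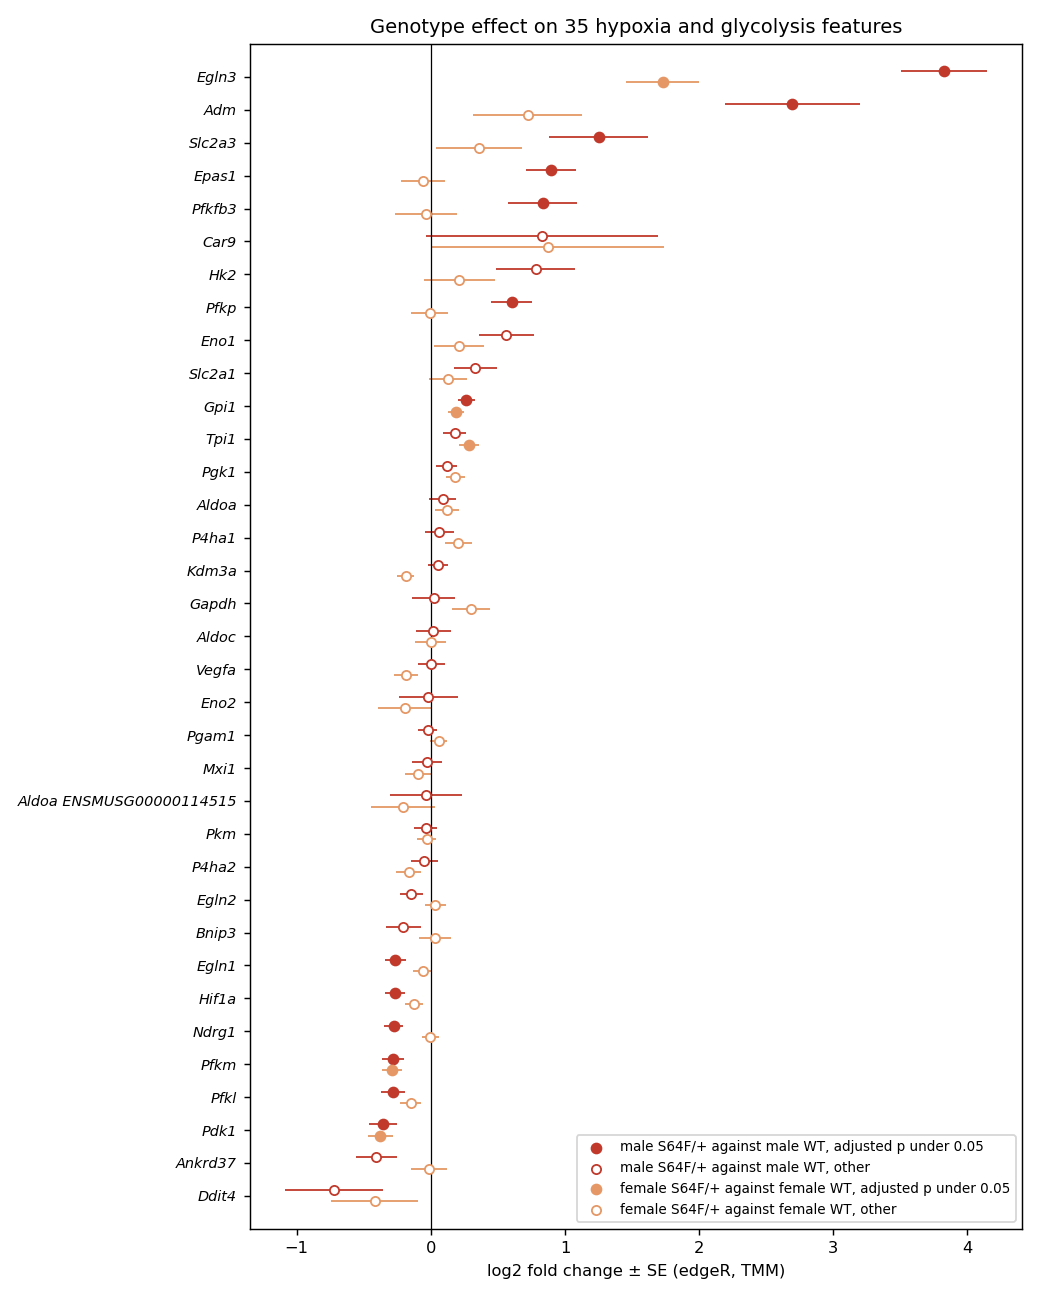
Log2 fold change with its standard error (horizontal axis) of the 35 features (rows, ordered by the male value) for male S64F/+ against male WT (dark, upper symbol of each row) and female S64F/+ against female WT (light, lower symbol). Filled symbols passed an adjusted p of 0.05 in edgeR. Egln3 lies to the right in both sexes, at 3.83 in males and 1.73 in females, while Epas1, Pfkfb3 and Pfkp lie to the right in males and near 0 in females.

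Egln3 (ENSMUSG00000035105, chr12:54178981-54203860 on the minus strand of GRCm38), the hypoxia-induced prolyl hydroxylase, had 8.69, 14.7, 23.4 and 15.6 CPM in the male S64F/+ libraries, against 0.774, 1.59, 0.665 and 1.29 CPM in the male WT libraries. The female S64F/+ libraries had 2.82, 3.39, 1.87, 3.13 and 2.60 CPM, against 0.919, 0.723, 1.15, 0.829 and 0.590 CPM in the female WT libraries. In each sex every S64F/+ library lay above every WT library, and the lowest male S64F/+ library lay above the highest female S64F/+ library. The rise was 14.2-fold in males (log2 fold change 3.83 ± 0.32 SE, edgeR adjusted p = 2.53e-07) and 3.31-fold in females (1.73 ± 0.27, adjusted p = 0.000189). The male effect exceeded the female effect by 2.10 ± 0.41 on the log2 scale (edgeR interaction, adjusted p = 0.0116), and all 3 calls were kept under every alternative tried.

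Egln1 (chr8:124908587-124949324), the main HIF prolyl hydroxylase of most tissues, moved the other way. It had 52.7, 46.5, 46.8 and 46.7 CPM in male S64F/+ libraries, against 55.4, 57.8, 59.4 and 58.6 CPM in male WT libraries, with no overlap (log2 fold change -0.26 ± 0.08, edgeR adjusted p = 0.0175). The adjusted p was 0.0510 without male S64F/+ replicate 2, 0.0503 without male S64F/+ replicate 3 and 0.0659 with no filter on low counts. In females Egln1 had 51.6, 50.6, 55.7, 59.8 and 57.5 CPM in S64F/+ libraries, against 53.6, 50.7, 56.6, 62.6 and 63.5 CPM in WT libraries, and the ranges overlapped (-0.06 ± 0.07, adjusted p = 0.600). Egln2 (chr7:27158658-27166802), the third prolyl hydroxylase, was called in neither sex. It had 63.9, 68.1, 65.6 and 67.8 CPM in male S64F/+ libraries, against 72.5, 65.8, 73.0 and 82.4 CPM in male WT libraries (-0.15 ± 0.09, edgeR adjusted p = 0.231). In females it had 62.2, 69.0, 78.9, 78.3 and 80.6 CPM in S64F/+ libraries, against 72.7, 71.6, 63.6, 76.3 and 75.8 CPM in WT libraries (0.03 ± 0.08, adjusted p = 0.798).

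**Figure D2:**
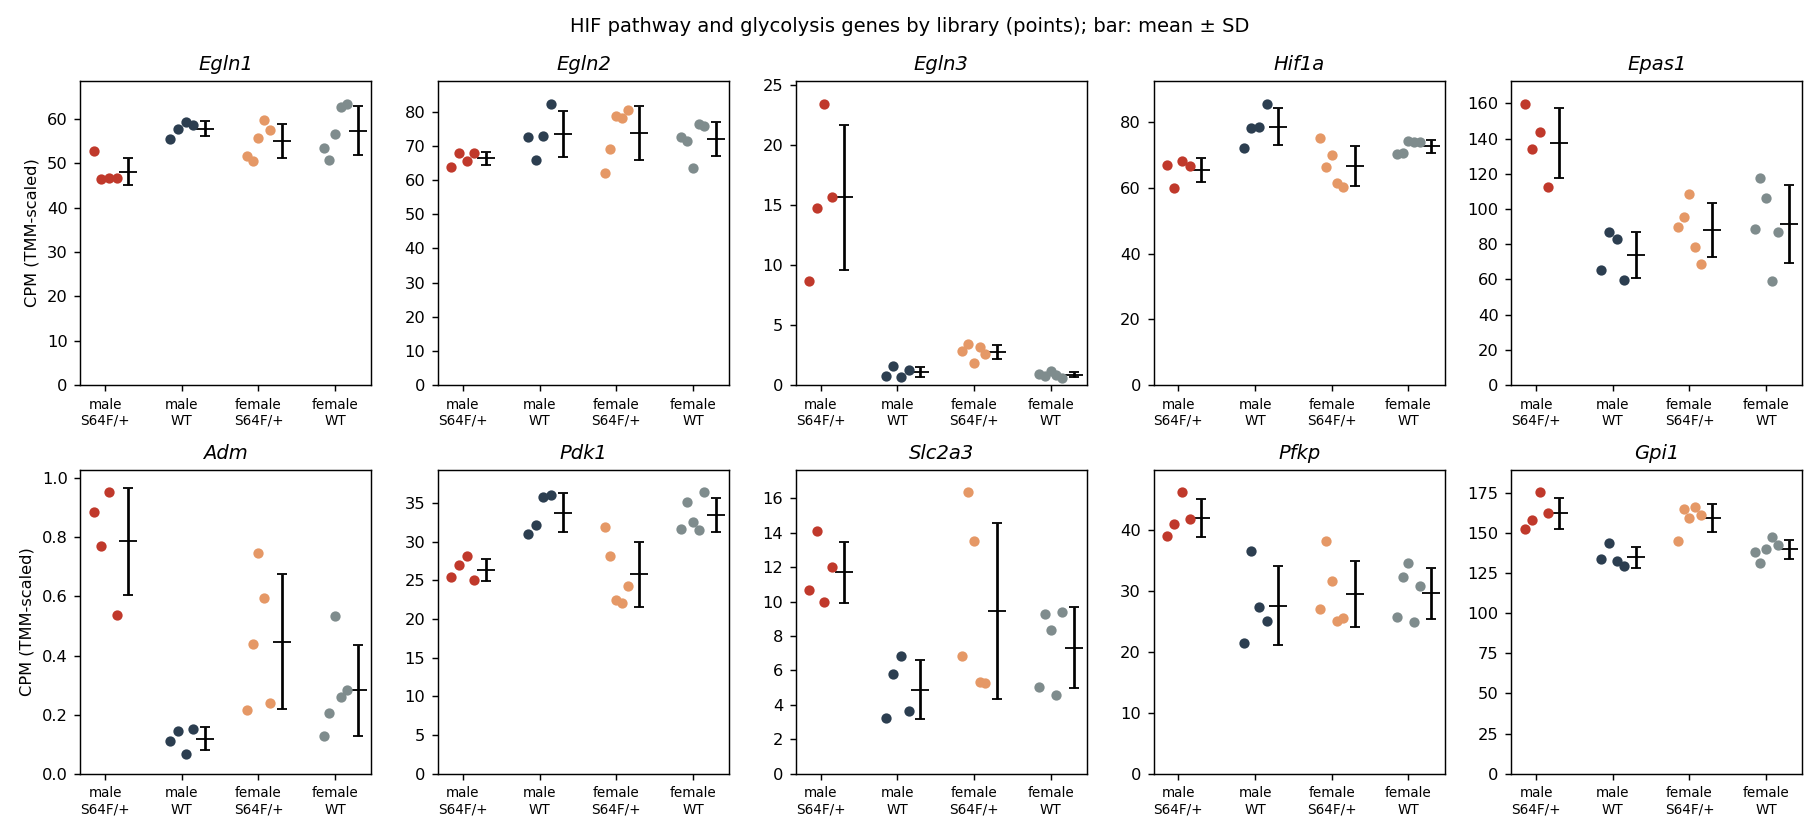
Expression in CPM with TMM scaling (vertical axes, from 0) of 10 members in each library (points) of male S64F/+, male WT, female S64F/+ and female WT islets, with the mean and SD of each group as a bar. Egln3 reaches 23.4 CPM in a male S64F/+ library and stays at or below 3.39 CPM in the female S64F/+ libraries, and Epas1 is high in the male S64F/+ group.

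The HIF alpha subunits diverged in males. Epas1 (chr17:86753700-86833410), which encodes HIF2-alpha and is prominent in endothelial cells, had 159.9, 134.1, 143.6 and 112.5 CPM in male S64F/+ libraries, against 65.6, 86.9, 82.8 and 59.9 CPM in male WT libraries. All male S64F/+ libraries lay above all male WT libraries (1.86-fold, log2 fold change 0.90 ± 0.19, edgeR adjusted p = 0.00155). In females Epas1 had 89.8, 95.4, 108.6, 78.3 and 68.7 CPM in S64F/+ libraries, against 88.7, 117.5, 106.0, 59.2 and 86.8 CPM in WT libraries, with the ranges overlapping (-0.06 ± 0.17, adjusted p = 0.847). The male effect was above the female effect by 0.95 ± 0.25 (edgeR interaction, adjusted p = 0.0406). That call was lost in 12 of the 18 fits that leave out 1 library: without male WT replicates 1, 3 and 4 (0.0711, 0.0585 and 0.0961), without male S64F/+ replicates 1, 2 and 3 (0.0890, 0.0654 and 0.0739), without female WT replicates 1, 2, 3 and 5 (0.0561, 0.0770, 0.0685 and 0.0544) and without female S64F/+ replicates 4 and 5 (0.0690 and 0.0630). With no filter on low counts it was 0.0559.

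Endothelial markers were read beside Epas1. Of 10 such markers, 8 were higher in male S64F/+ than in male WT islets, with a median log2 fold change of 0.87, and the median in females was 0.03, where 0 of 10 were called by edgeR and 4 had an unadjusted p under 0.05, 2 in each direction. No endothelial marker was at 0 in any group. The ratio of Epas1 to the summed endothelial markers was 0.121 to 0.145 in male S64F/+ and 0.121 to 0.127 in male WT libraries, a difference of 0.12 on the log2 scale (exact permutation test, two-sided, p = 0.114). In females it was 0.112 to 0.137 in S64F/+ and 0.105 to 0.152 in WT libraries (difference -0.07, exact permutation test, p = 0.548). This ratio was chosen after the values were seen. Markers of stellate cells and fibroblasts, ductal cells and Schwann cells were also higher in the male S64F/+ libraries. Which cells carry the Epas1 rise was not tested.

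**Figure D3:**
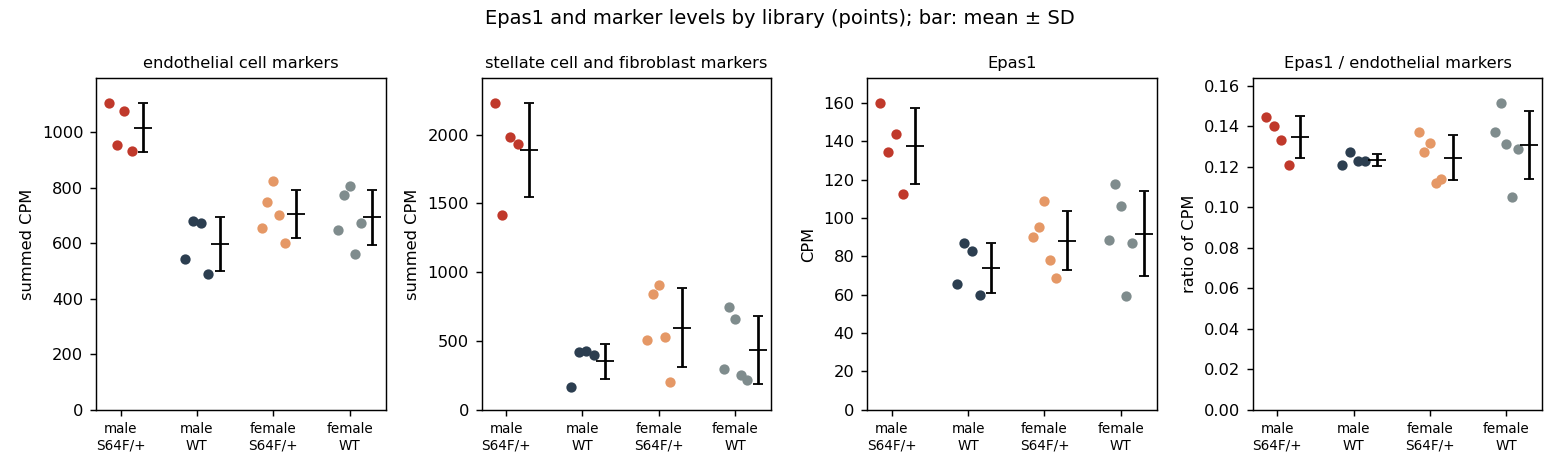
Summed endothelial markers, summed stellate-cell and fibroblast markers and Epas1 (CPM, vertical axes from 0), and the ratio of Epas1 to the endothelial sum, for each library (points) of male S64F/+, male WT, female S64F/+ and female WT islets, with mean and SD as bars. Both marker sums and Epas1 are high in male S64F/+ islets, while the ratio lies between 0.105 and 0.152 in all libraries and overlaps between the groups.

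Hif1a (chr12:73901375-73947530), which encodes HIF1-alpha, had 67.0, 60.0, 68.3 and 66.6 CPM in male S64F/+ libraries, against 72.1, 78.2, 78.6 and 85.7 CPM in male WT libraries. The ranges were apart, with male S64F/+ lower (log2 fold change -0.26 ± 0.07, edgeR adjusted p = 0.0126; 0.0515 without male WT replicate 4). In females Hif1a had 75.3, 66.3, 70.04, 61.6 and 60.2 CPM in S64F/+ libraries, against 70.4, 70.6, 74.3, 74.2 and 73.9 CPM in WT libraries, which overlapped (-0.12 ± 0.07, adjusted p = 0.199).

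Among the 12 hypoxia targets, Adm was the member that rose in males, and Pdk1 and Ndrg1 fell. Adm (chr7:110627661-110629820), which encodes the vasodilator adrenomedullin, was scarce throughout, with 316 counts over all libraries. It had 0.885, 0.772, 0.953 and 0.538 CPM in male S64F/+ libraries, against 0.111, 0.144, 0.0665 and 0.152 CPM in male WT libraries, so that every male S64F/+ library lay above every male WT library (6.47-fold, log2 fold change 2.69 ± 0.50, edgeR adjusted p = 0.000599). In females Adm had 0.215, 0.441, 0.748, 0.596 and 0.238 CPM in S64F/+ libraries, against 0.126, 0.207, 0.533, 0.261 and 0.283 CPM in WT libraries, and the ranges overlapped (0.72 ± 0.41, adjusted p = 0.224). The difference between the sexes, 1.97 ± 0.65, had an edgeR adjusted p of 0.0785, and of 0.0471 with library-size scaling.

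Pdk1 (chr2:71873224-71903858), the kinase that holds pyruvate back from mitochondrial oxidation, fell in both sexes. It had 25.4, 27.0, 28.1 and 25.0 CPM in male S64F/+ libraries, against 31.0, 32.2, 35.8 and 36.0 CPM in male WT libraries, with no overlap (log2 fold change -0.36 ± 0.10, edgeR adjusted p = 0.0151). In females it had 31.9, 28.1, 22.5, 22.1 and 24.3 CPM in S64F/+ libraries, against 31.6, 35.1, 32.5, 31.5 and 36.4 CPM in WT libraries, and female S64F/+ replicate 1 lay within the WT range (-0.38 ± 0.09, edgeR adjusted p = 0.00736). The female call was kept under every alternative tried.

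Ndrg1 (chr15:66929318-66969640), a stress-responsive gene, had 139.8, 129.0, 148.1 and 138.8 CPM in male S64F/+ libraries, against 156.1, 160.4, 178.2 and 178.7 CPM in male WT libraries, with male S64F/+ below (log2 fold change -0.28 ± 0.07, edgeR adjusted p = 0.00741). The female S64F/+ libraries had 192.7, 193.4, 197.9, 189.4 and 193.5 CPM, against 189.0, 189.2, 175.8, 213.4 and 202.6 CPM in the female WT libraries, within 1 range (-0.00 ± 0.06, adjusted p = 0.970). The other targets, Vegfa, Bnip3 (mitophagy), Ankrd37, Car9 (a carbonic anhydrase), P4ha1 and P4ha2 (collagen prolyl hydroxylases), Kdm3a (a histone demethylase), Ddit4 (an inhibitor of mTORC1) and Mxi1 (a MYC antagonist), passed in neither genotype contrast. Vegfa averaged 464.9 ± 9.64 CPM in male S64F/+ and 463.7 ± 49.0 CPM in male WT islets (SD, n = 4 each), and its log2 fold change was 0.00 ± 0.10. Ddit4 averaged 73.3 ± 15.3 CPM in male S64F/+ and 121.1 ± 42.6 CPM in male WT islets (SD, n = 4 each; -0.72 ± 0.36, edgeR adjusted p = 0.159). Ankrd37 ran from 7.10 to 9.20 CPM in male S64F/+ and from 9.42 to 13.4 CPM in male WT libraries (-0.41 ± 0.15, adjusted p = 0.0561), and passed without female WT replicates 1 or 3 or female S64F/+ replicate 3 (0.0430, 0.0402 and 0.0499). It also passed with only the male libraries in the fit. On the other strand it overlaps 57 exonic bases of Ufsp2, whose total count was 511% of its own, and 349 of Lrp2bp, whose total was 26.9% of its own, so that reads of these genes may not be separable. Ufsp2 was also lower in males, at 59.6 ± 6.13 CPM in S64F/+ and 70.4 ± 7.26 CPM in WT islets (SD, n = 4 each; -0.24 ± 0.08, edgeR adjusted p = 0.0360), and Lrp2bp was at 0.32 ± 0.21 (adjusted p = 0.292). In females Kdm3a averaged 38.6 ± 2.87 CPM in S64F/+ and 43.98 ± 2.71 CPM in WT islets (SD, n = 5 each; -0.19 ± 0.07, edgeR adjusted p = 0.0503), and passed without male WT replicate 2, female WT replicate 3 or female S64F/+ replicate 1 (0.0455, 0.0396 and 0.0110). It also passed with a stricter filter and with DESeq2. Vegfa in females was at -0.19 ± 0.09 (adjusted p = 0.146, and 0.0467 without female S64F/+ replicate 5). Car9 had 0.885, 0.556, 3.79 and 0.440 CPM in male S64F/+ libraries, against 0.00, 2.55, 0.233 and 0.228 CPM in male WT libraries. Its adjusted p of 0.522 in males became 0.0121 (log2 fold change 3.08) without male WT replicate 2.

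Slc2a3 (chr6:122727809-122801640), the high-affinity glucose transporter GLUT3, rose in males. It had 10.7, 14.1, 9.995 and 12.03 CPM in male S64F/+ libraries, against 3.26, 5.80, 6.82 and 3.65 CPM in male WT libraries, and the ranges were apart (2.38-fold, log2 fold change 1.25 ± 0.37, edgeR adjusted p = 0.0171). The adjusted p was 0.0568 without male WT replicate 1 and 0.0589 without male WT replicate 4. In females Slc2a3 had 6.87, 16.4, 13.5, 5.34 and 5.26 CPM in S64F/+ libraries, against 5.04, 9.31, 8.33, 4.57 and 9.42 CPM in WT libraries, so that 2 female S64F/+ libraries stood above the rest (0.36 ± 0.32, adjusted p = 0.472). Slc2a1, the basal transporter GLUT1, ran from 13.95 to 20.7 CPM in male S64F/+ and from 12.4 to 17.3 CPM in male WT libraries (0.33 ± 0.16, edgeR adjusted p = 0.137).

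The phosphofructokinase step, which commits sugar to glycolysis, showed rises and falls among its isoforms in males. Pfkp (chr13:6579768-6648777), the platelet isoform, had 39.0, 41.0, 46.2 and 41.8 CPM in male S64F/+ libraries, against 21.4, 36.5, 27.4 and 25.1 CPM in male WT libraries, with no overlap (1.52-fold, log2 fold change 0.60 ± 0.15, edgeR adjusted p = 0.00686). In females it had 27.0, 38.2, 31.6, 25.1 and 25.6 CPM in S64F/+ libraries, against 25.7, 32.4, 34.5, 25.0 and 30.8 CPM in WT libraries (-0.01 ± 0.14, adjusted p = 0.972), and the ranges overlapped. The difference between the sexes, 0.61 ± 0.21, had an edgeR adjusted p of 0.0859, 0.0371 with DESeq2, and 0.0280, 0.0485 and 0.0408 without male WT replicate 2, female WT replicate 4 and female S64F/+ replicate 2. Exons of Pfkp overlap 748 bases of Pitrm1 on the other strand, and the strand setting of the counts is not known. Pitrm1 moved the other way in males, to 54.6 ± 2.86 CPM in S64F/+, against 68.7 ± 3.88 CPM in WT islets (SD, n = 4 each; -0.33 ± 0.07, edgeR adjusted p = 0.00240).

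The liver and muscle isoforms were lower. Pfkl (chr10:77986947-78010083) had 56.1, 55.1, 57.4 and 55.8 CPM in male S64F/+ libraries, against 61.6, 66.3, 72.5 and 72.7 CPM in male WT libraries, which were apart (log2 fold change -0.28 ± 0.09, edgeR adjusted p = 0.0219). That call was lost without male WT replicate 3 (0.0676), male WT replicate 4 (0.0703) or male S64F/+ replicate 2 (0.0528), and with no filter on low counts (0.0675). In females Pfkl had 68.6, 60.0, 67.9, 78.2 and 78.5 CPM in S64F/+ libraries, against 74.9, 73.6, 71.5, 85.5 and 86.8 CPM in WT libraries, which overlapped (-0.15 ± 0.08, adjusted p = 0.187).

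Pfkm (chr15:98092589-98132451), the main isoform of muscle, had 69.3, 70.8, 70.5 and 74.3 CPM in male S64F/+ libraries, against 87.5, 87.1, 80.4 and 90.8 CPM in male WT libraries, with S64F/+ below throughout (log2 fold change -0.28 ± 0.08, edgeR adjusted p = 0.0145; 0.0558 with no filter on low counts). In females it had 71.5, 69.5, 62.7, 78.7 and 76.7 CPM in S64F/+ libraries, against 86.0, 84.2, 76.4, 97.1 and 95.1 CPM in WT libraries, and the ranges overlapped between 76.4 and 78.7 CPM (-0.29 ± 0.07, edgeR adjusted p = 0.00821; 0.0512 with only the female libraries in the fit).

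Pfkfb3 (chr2:11471433-11554077) makes fructose 2,6-bisphosphate, the activator of phosphofructokinase. It had 12.9, 10.7, 8.68 and 7.99 CPM in male S64F/+ libraries, against 4.37, 8.88, 5.22 and 3.99 CPM in male WT libraries, and male WT replicate 2 lay within the S64F/+ range (1.78-fold, log2 fold change 0.83 ± 0.26, edgeR adjusted p = 0.0209). The call was lost without male WT replicate 1 (0.0676), 3 (0.0552) or 4 (0.0775) and without male S64F/+ replicate 1 (0.0777). In females Pfkfb3 had 5.36, 8.42, 6.15, 6.08 and 4.18 CPM in S64F/+ libraries, against 4.74, 7.55, 7.71, 4.74 and 6.14 CPM in WT libraries, which overlapped (-0.04 ± 0.23, adjusted p = 0.934).

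Gpi1 (chr7:34201330-34230336), which turns glucose 6-phosphate into fructose 6-phosphate, was slightly higher in both sexes. It had 152.2, 158.2, 175.2 and 162.5 CPM in male S64F/+ libraries, against 133.5, 143.9, 132.6 and 129.0 CPM in male WT libraries, with no overlap (log2 fold change 0.27 ± 0.07, edgeR adjusted p = 0.00595). In females it had 144.7, 165.0, 159.4, 165.8 and 161.0 CPM in S64F/+ libraries, against 137.8, 131.1, 139.9, 147.4 and 142.3 CPM in WT libraries, and female S64F/+ replicate 1 lay within the WT range (0.19 ± 0.06, edgeR adjusted p = 0.0310). The female call was lost with the replicate number as a block (0.0563), with library-size scaling (0.129), with no filter (0.111) and with only the female libraries (0.113). It was also lost without female WT replicates 1, 2 or 3 (0.0655, 0.0797 and 0.0519) and without female S64F/+ replicates 2, 4 or 5 (0.0631, 0.0735 and 0.0577).

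Tpi1 (chr6:124810586-124814296), triose phosphate isomerase, was called in females. It had 111.3, 117.3, 116.7, 131.0 and 124.4 CPM in female S64F/+ libraries, against 90.0, 90.5, 93.5, 113.8 and 106.4 CPM in female WT libraries, where 1 WT library lay inside the S64F/+ range (log2 fold change 0.28 ± 0.07, edgeR adjusted p = 0.0116; 0.0545 with only the female libraries). In males it had 119.2, 127.4, 141.3 and 130.3 CPM in S64F/+ libraries, against 107.0, 119.6, 112.7 and 118.8 CPM in WT libraries, which overlapped by 1 pair (0.18 ± 0.08, edgeR adjusted p = 0.126; 0.0359 with only the male libraries). The male minus female difference was -0.10 ± 0.11 (adjusted p = 0.601), so that the effects in males and females were not shown to differ. Hk2 averaged 1.40 ± 0.397 CPM in male S64F/+ and 0.8004 ± 0.220 CPM in male WT islets (SD, n = 4 each; 0.78 ± 0.30, edgeR adjusted p = 0.0560), and the adjusted p was 0.0351 without male WT replicate 2, 0.0482 without male S64F/+ replicate 2 and 0.0460 without female WT replicate 5. Hk2 also passed with a stricter filter.

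The other enzymes of lower glycolysis, Aldoa (both features), Aldoc, Gapdh, Pgk1, Pgam1, Eno1, Eno2 and Pkm, passed in neither genotype contrast. Apart from Eno1 in both sexes and Gapdh, Eno2 and the second Aldoa feature in females, their log2 fold changes lay between -0.04 and 0.18. Gapdh averaged 307.1 ± 83.9 CPM in male S64F/+ and 302.4 ± 47.8 CPM in male WT islets (SD, n = 4 each), and 342.4 ± 33.1 CPM in female S64F/+ and 278.1 ± 35.3 CPM in female WT islets (SD, n = 5 each; 0.30 ± 0.14, edgeR adjusted p = 0.146, and 0.0427 with the replicate number as a block). Eno1 had 142.1, 165.0, 158.3 and 141.3 CPM in male S64F/+ libraries, against 109.0, 137.6, 83.0 and 81.0 CPM in male WT libraries. Its ranges were apart, and its adjusted p was 0.0520 (0.56 ± 0.21, edgeR). It passed without male WT replicate 2 (0.0152), female WT replicate 3 (0.0292) or female S64F/+ replicate 1 (0.0235), and with DESeq2 (0.0217). It also passed with a stricter filter and with only the male libraries in the fit. In females Eno1 ran from 89.0 to 163.4 CPM in S64F/+ and from 80.1 to 148.2 CPM in WT libraries (0.21 ± 0.19, adjusted p = 0.458). Pgk1 in females had an adjusted p of 0.0641 (0.18 ± 0.07), with S64F/+ libraries at 75.1 to 80.2 CPM, apart from WT libraries at 63.4 to 72.7 CPM, and passed without male S64F/+ replicates 1 or 4 (0.0418 and 0.0465). With DESeq2 it passed as well.

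Eno1 and Gapdh both have near-identical copies in the annotation, and how reads that match several genes were counted is unknown. Transcripts with at least 95% identity over at least 300 bases belong to 103 other genes for Gapdh and 4 for Eno1, whose own counts together came to 7.7% of the size of the Gapdh count and 7.9% of the size of the Eno1 count. The copy Eno1b was at 0.0927 to 0.249 CPM in 7 libraries, where Eno1 ran from 127.3 to 165.0 CPM, and at 7.30 to 15.2 CPM in the other 11, where Eno1 ran from 80.1 to 158.3 CPM. Eno1b was highest, at 12 to 15.2 CPM, in male WT replicates 3 and 4, female WT replicate 3 and female S64F/+ replicate 1. These libraries had the lowest Eno1, at 80.1 to 89.0 CPM. Male S64F/+ libraries reached at most 9.61 CPM of Eno1b. The copy Gm13394 of Gapdh was at 0.0215 to 1.21 CPM in 9 libraries, at 13.3 to 16.8 CPM in 6 and at 29.2 to 33.9 CPM in 3. Gapdh ran from 263.3 to 386.1 CPM, from 235.1 to 338.1 CPM and from 233.1 to 253.9 CPM in these 3 sets of libraries. Both genotypes were found at each level: male S64F/+ replicates 1 and 2 were among the 3 highest for Gm13394, and replicates 3 and 4 of the same group were near 0. With the copies summed into the gene, an alternative chosen after the data were seen, Eno1 averaged 164.2 ± 8.63 CPM in male S64F/+ and 123.5 ± 21.3 CPM in male WT islets (SD, n = 4 each; log2 fold change 0.41 ± 0.13, edgeR adjusted p = 0.0232). Gapdh then averaged 332.4 ± 66.3 CPM in male S64F/+ and 334.7 ± 34.5 CPM in male WT islets (SD, n = 4 each; -0.01 ± 0.13, adjusted p = 0.966). What sets the level of the copies was not tested.

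**Figure D4:**
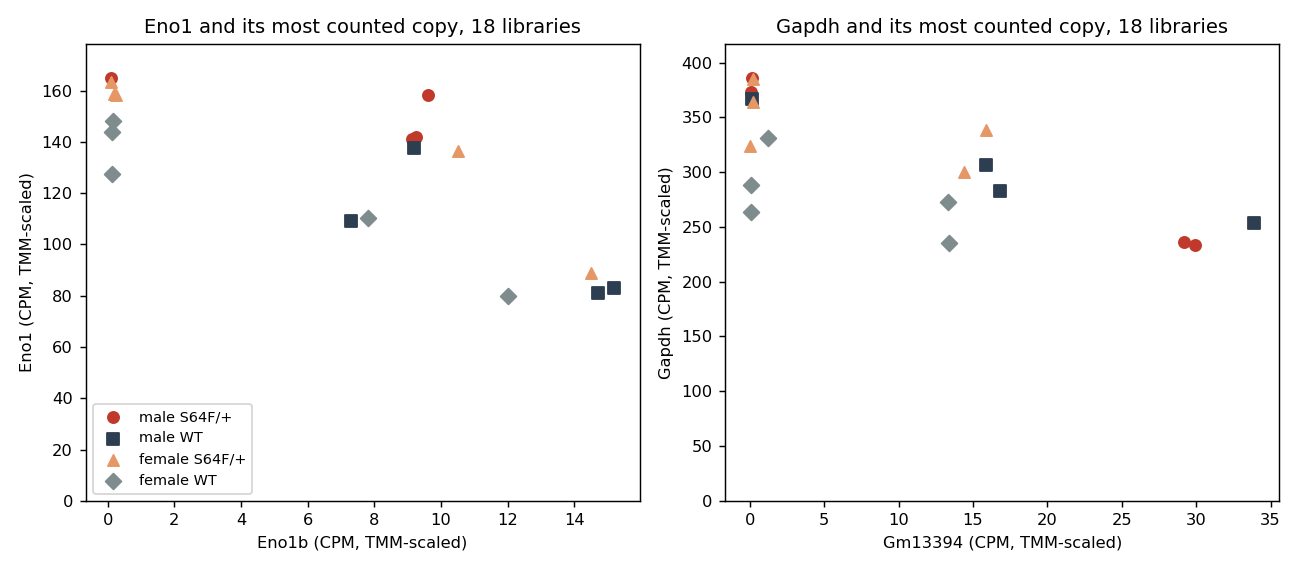
Eno1 against its most counted near-identical copy Eno1b (left) and Gapdh against Gm13394 (right), in CPM with TMM scaling, 1 symbol per library and 1 shape per group. Libraries fall into separate levels of each copy, near 0 or at 7.30 CPM and more for Eno1b, and near 0, at 13.3 to 16.8 CPM or at 29.2 CPM and more for Gm13394, with symbols of both genotypes at each. The libraries at 12 to 15.2 CPM of Eno1b have Eno1 at 80.1 to 89.0 CPM, and none of them is male S64F/+.

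The 6 small falls in males depended on the scaling between libraries. CPM and tests used TMM, and with plain library-size scaling the median of all genes in males moved to 0.19 on the log2 scale, against -0.03 with TMM. All genes then split into 4248 higher and 666 lower, against 2819 higher and 2252 lower with TMM, and the members into 14 higher and 0 lower, against 7 and 6 (edgeR, adjusted p under 0.05). Egln1, Hif1a, Ndrg1, Pdk1, Pfkl and Pfkm stayed below 0 but lost their calls, with log2 fold changes of -0.04, -0.04, -0.05, -0.13, -0.06 and -0.06. Relative to the median of all genes they lay at -0.23 to -0.32 with library-size scaling and at -0.24 to -0.33 with TMM. Egln3, Adm, Slc2a3, Epas1, Pfkfb3, Pfkp and Gpi1 kept their calls under both scalings, and Eno1, Hk2, Slc2a1, Aldoa, Tpi1, Pgk1 and P4ha1 were called as well with library-size scaling.

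**Figure D5:**
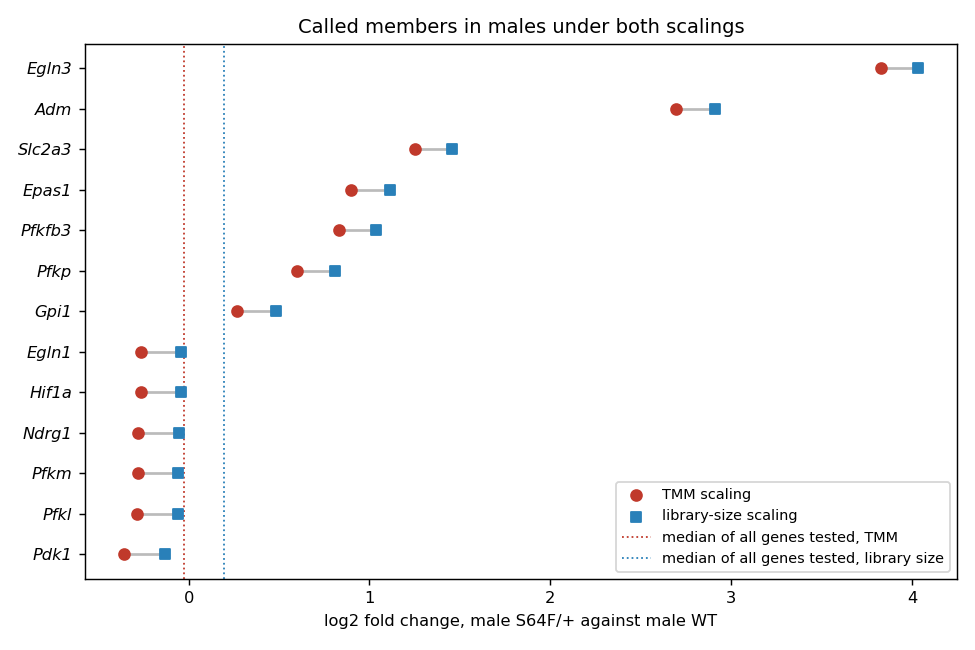
Log2 fold change of male S64F/+ against male WT (horizontal axis) for the 13 features called in males, with TMM scaling (circles) and library-size scaling (squares), and the median of all genes tested under each scaling (dotted lines at -0.03 and 0.19). All 13 shift to the right by about the same distance as the median, and the 6 lower features end close to 0.

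The test of the male minus the female genotype effect called 2 of 35 features higher (5.71%), Egln3 and Epas1, against 2.87% of all genes, and 0 lower, against 1.6% of all genes (4.47% in either direction). For falls in this test, 1 feature had an unadjusted p under 0.05 in edgeR and DESeq2 called 1. That feature, Ndrg1, differed by -0.27 ± 0.10 (edgeR adjusted p = 0.0979, and 0.0445 without female WT replicate 4). Pfkfb3 differed by 0.87 ± 0.34 (adjusted p = 0.133, and 0.0358 without male WT replicate 2). Library-size scaling moved the median of all genes in this test to 0.25, against 0.01 with TMM, and their split to 1031 higher and 30 lower, against 527 and 294. The test uses the same libraries as the genotype contrasts.

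Between males and females of the S64F/+ genotype, Egln3, Epas1, Pfkp, Slc2a1, Pfkfb3 and Pgk1 were higher in males (6 of 35, 17.1%, against 8% of all genes), and Ndrg1, Ankrd37 and Pfkl were lower (3 of 35, 8.57%, against 8.12% of all genes, and 16.1% in either direction). Egln3 averaged 15.6 ± 6.05 CPM in male S64F/+ (n = 4) and 2.76 ± 0.584 CPM in female S64F/+ islets (n = 5), which is 5.63-fold (log2 2.49 ± 0.28, edgeR adjusted p = 5.42e-05). Ndrg1 averaged 138.9 ± 7.83 CPM in male S64F/+ and 193.4 ± 3.03 CPM in female S64F/+ islets (-0.48 ± 0.07, adjusted p = 0.000437). Library-size scaling moved the median of all genes here to 0.18, against -0.01 with TMM, and their split to 2763 higher and 374 lower, against 1470 and 1492. The calls of Epas1 (0.64 ± 0.17, edgeR adjusted p = 0.0203), Pfkp (0.51 ± 0.14, 0.0245), Slc2a1 (0.49 ± 0.15, 0.0341), Pfkfb3 (0.74 ± 0.24, 0.0424) and Ankrd37 (-0.52 ± 0.15, 0.0233) were each lost in some fits that left out 1 library. Epas1 lost its call without male S64F/+ replicates 1 or 3 (0.0672 and 0.0523) or female S64F/+ replicates 4 or 5 (0.0509 and 0.0523). Pfkp lost it without male S64F/+ replicates 3 or 4 (0.0713 and 0.0511) or female S64F/+ replicates 4 or 5 (0.0631 and 0.0612). Slc2a1 lost it without male S64F/+ replicates 1, 2 or 4 (0.104, 0.0621 and 0.0974) or female S64F/+ replicates 2 or 3 (0.0508 and 0.0676), and Ankrd37 without male S64F/+ replicates 2 or 4 (0.0715 and 0.0636). Pfkfb3 lost it without any of 9 libraries: male S64F/+ replicates 1, 2 and 3, all female S64F/+ replicates other than 2, male WT replicate 3 and female WT replicate 5 (0.0507 to 0.136). With no filter on low counts Slc2a1 and Pfkfb3 lost their calls, and with only the S64F/+ groups in the fit Slc2a1 did. With library-size scaling Ankrd37 and Pfkl lost theirs (edgeR adjusted p = 0.142 and 0.176). Hk2, P4ha2 and Tpi1 were then called higher in males (0.0363, 0.0227 and 0.0133).

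Between males and females of the WT genotype, 1 of 35 features was higher in males (2.86%, against 1.73% of all genes), the X-linked gene Pgk1, and 0 were lower (against 0.637% of all genes, and 2.36% in either direction). At an unadjusted p under 0.05 edgeR gave 5 lower and DESeq2 called 1. Pgk1 (chrX:106187100-106203699), which makes the first ATP of glycolysis, averaged 88.6 ± 6.17 CPM in male WT (n = 4) and 67.8 ± 3.44 CPM in female WT islets (n = 5), which is 1.31-fold (log2 0.39 ± 0.07, edgeR adjusted p = 0.0116; 0.0613 with plain library totals as the scale and 0.0570 without male WT replicate 4). In S64F/+ islets its male value was 96.1 ± 10.9 CPM and its female value 76.9 ± 2.06 CPM (0.32 ± 0.07, adjusted p = 0.00803).

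Ratios of related genes were compared within each library, on log2 of FPKM plus 0.1, and only their difference between genotypes is given, since the gene lengths behind FPKM are uncertain. The Egln3 to Egln1 ratio was 3.78 higher on the log2 scale in male S64F/+ than in male WT islets (n = 4 each) and 1.504 higher in female S64F/+ than in female WT islets (n = 5 each). With 1 in place of 0.1 as the added constant, which weighs on a scarce gene such as Egln3, these Egln3 differences were 2.42 and 0.69. In males the Epas1 to Hif1a ratio was 1.16 higher and the Pfkp to Pfkl ratio 0.85 higher in S64F/+ than in WT islets, while the Eno2 to Eno1 ratio differed by -0.59. In these 4 male comparisons and in the female Egln3 to Egln1 ratio, the genotypes did not overlap. The exact permutation test, two-sided, then gave the smallest p it can give, 0.0286 for 4 against 4 and 0.00794 for 5 against 5, and over the 14 ratios tested all 5 had an adjusted p of 0.0800, so that none passed. The Pfkm to Pfkl ratio differed by 0.00 in males (exact permutation test, p = 0.971), where both isoforms were lower.

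Genes outside the 34 that serve the same pathways were read from lists of 11 other HIF regulators, 32 other hypoxia targets and 22 other tested genes of glycolysis and pyruvate use. In males, 1 HIF regulator rose and 1 fell, 10 hypoxia targets rose and 5 fell, and 4 glycolysis and pyruvate genes rose and 4 fell (edgeR, adjusted p under 0.05), beside 15.4% of all genes higher and 12.3% lower. The list medians were -0.08, 0.31 and -0.08, against -0.03 over all genes. Hif3a, which encodes a further HIF alpha subunit, averaged 0.839 ± 0.159 CPM in male S64F/+ and 0.248 ± 0.131 CPM in male WT islets (log2 fold change 1.78), and Cited2, a competitor of HIF for its coactivator, was at -0.46. The 4 hypoxia targets farthest from 0 were Lox (3.36) and Plod2 (1.36), which crosslink and modify collagen, the vasoconstrictor gene Edn1 (1.93) and the adenylate kinase gene Ak4 (1.28). Lox averaged 7.02 ± 1.60 CPM in male S64F/+ and 0.670 ± 0.485 CPM in male WT islets. Lox and Plod2 rose in the same libraries as the stellate-cell and fibroblast markers, of which 9 of 10 were higher in male S64F/+ islets, and whether those cells account for the rise was not tested. Of glycolysis and pyruvate genes, the hexokinase genes Hk3 (1.46) and Hk1 (1.22) and the lactate and pyruvate transporter gene Slc16a1 (1.41) were higher, and Pcx, the pyruvate carboxylase that refills the citric acid cycle in beta cells, was lower (-1.23). Hk1 averaged 31.7 ± 4.51 CPM in male S64F/+ and 13.6 ± 3.87 CPM in male WT islets, while Pcx averaged 83.3 ± 5.74 CPM in male S64F/+ and 195.8 ± 15.4 CPM in male WT islets (SD, n = 4 each).

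In females, 4 HIF regulators rose and 3 fell, 4 hypoxia targets rose and 5 fell, and 1 glycolysis and pyruvate gene rose and 3 fell, beside 10.2% of all genes higher and 11% lower, and the list medians were 0.26, 0.13 and -0.02, against 0.02 over all genes. Cited2 was at -0.72 on the log2 scale, Cited4 at 0.58, and Elob and Eloc, the elongin subunits of the ligase that degrades HIF alpha, at 0.44 and 0.37. Higd1a, a mitochondrial gene induced by hypoxia, averaged 26.03 ± 4.03 CPM in female S64F/+ and 12.2 ± 2.13 CPM in female WT islets (1.10), and the others farthest from 0 were Vldlr (-0.65), Fam162a (0.60) and the transferrin receptor gene Tfrc (-0.59). Pcx fell to 105.9 ± 14.4 CPM in female S64F/+, against 227 ± 37.3 CPM in female WT islets (-1.10), Pdk4, another pyruvate dehydrogenase kinase, rose (0.90), and the glucose transporter gene Slc2a2 (-0.64) and Pfkfb2 (-0.61) fell. Between the sexes, the genotype effect was higher in males for Arnt (0.35), the partner of HIF alpha, Bhlhe40 (1.18) and Flt1 (0.87), and lower for Higd1a (-0.93) and Pdhb (-0.38), with edgeR adjusted p-values of 0.0383, 0.0283, 0.0107, 0.0172 and 0.0337, beside 2.87% of all genes higher and 1.6% lower. Flt1, a receptor for VEGF, is also 1 of the 10 endothelial markers.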

How the data were processed

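RNA-seq of 18 islet libraries was analysed from tables the authors deposited, with unnormalized counts of reads for each gene. Per the labels' protocols, RNA had an integrity number above 8 and was read paired-end at 150 nucleotides. Per the submitters' processing notes, GRCm38 was the build and the tools included FastQC, MultiQC, STAR, featureCounts and DESeq2. The annotation, the strand setting and the handling of reads with several matches are unknown. FPKM, as deposited, came to counts over column totals and a whole-number gene length for 33562 of 33562 counted genes (within 0.001 base). That length was above the merged exon length for 30 of 35 member features and above the whole gene span for 6, so levels between genes are CPM per kilobase of merged exons (GENCODE M21), and FPKM served only for changes of a ratio. Features that name no gene (99 spike-ins) held 0 counts.

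Counts were tested in R 4.3.3 with edgeR 4.0.16, using filterByExpr (minimum count 10, minimum total 15), TMM scaling and 1 robust quasi-likelihood model with 1 coefficient per group over all 18 libraries, two-sided. P-values were adjusted by Benjamini-Hochberg over 18364 genes per contrast, with a threshold of 0.05. Replicate numbers came from the titles. Total counts were 29017873 to 61607799 in male S64F/+, 19317971 to 40450921 in male WT, 21833230 to 57390790 in female S64F/+ and 23527231 to 108659014 in female WT libraries. The smallest chi-square per degree of freedom between replicates of a group was 21.7, so that no pair was 1 library read again. This value cannot show whether libraries shared an animal or a pool. Ratios used exact permutation tests (SciPy 1.17.1). Same-numbered S64F/+ and WT libraries deviated together in females (correlations 0.110 to 0.418 in all 5 pairs) and not in males (-0.249 to 0.189), so that the numbers were taken as pairs in females only, a reading of the data that no label states. Alternatives were library-size scaling, DESeq2 1.42.0 size factors and test, no or a stricter filter, only the groups of a contrast, a replicate block, each library left out, and copies added to their gene.

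All members are named. Values in every library are given for members called in a genotype contrast or the interaction and for the hydroxylases and HIF subunits, and of the other pathway genes up to 4 called genes per list and contrast with the largest change. The members and lists were chosen with earlier results of these data known. Uncalled members given by library (Eno1, Car9), genes that overlap or copy a member, and the pathway genes given with group means were singled out after their values were seen. Gene positions are from GENCODE M21 on GRCm38.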

Additional observations from a re-analysis of the deposited data

Results flagged for a closer look

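Of 140 sets of a member's values within a group, 5 had a library far from the others by Dixon's test. Chance gives about 1 in 20 (5%), a larger share, so that these 5 are no more than chance would give. Egln1 was at 52.7 CPM in male S64F/+ replicate 1, above the other 3 libraries of its group, which lay at 46.5 to 46.8 CPM. Car9 stood high in 3 libraries, at 3.79 CPM in male S64F/+ replicate 3, 2.55 CPM in male WT replicate 2 and 0.748 CPM in female S64F/+ replicate 3. Ddit4 was at 162.8 CPM in female WT replicate 4. The genotype effect differed between the sexes for Egln3, by 2.10 on the log2 scale, and for Epas1, by 0.95, male minus female, by the edgeR interaction test given above.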

How the results depend on the processing

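No called value of a member changed direction under any alternative. With library-size scaling, 14 members were higher and 0 lower in male S64F/+ against male WT, 1 was lower in males than females of S64F/+, and 0 were higher in males than females of WT, where the single TMM call was Pgk1 (adjusted p = 0.0613 in edgeR). With no filter on low counts, which tests more genes, 3 members were lower in male S64F/+ islets and 1 was higher in the male minus female effect. With only the groups of the contrast in the fit, 1 member was higher and 1 lower in female S64F/+ against female WT, and with DESeq2 1 was lower in the male minus female effect and 1 in males against females of WT. Leaving out 1 library at a time gave 5 to 10 higher and 4 to 7 lower in males, 2 to 4 higher and 2 to 3 lower in females, 1 to 4 higher and 0 to 1 lower in the male minus female effect, 3 to 6 higher and 2 to 3 lower between the sexes in S64F/+ and 0 to 1 higher and 0 lower in WT. The single Pgk1 call in WT was lost without male WT replicate 4. The causes of these moves were not tested. With the replicate number as a block, all genes split into 2923 higher and 2178 lower in males and 1830 higher and 2035 lower in females, and among members the male call of Eno1 was gained (0.0437), that of Gpi1 in females was lost (0.0563), and Gapdh in females and the Pfkp difference between the sexes were gained; no other member call changed. Whether the numbers are pairs was not settled by the check in either sex. Over all genes, counts moved by over 1.5 times in females with only their groups in the fit (1239 higher, 1348 lower), and between the sexes in S64F/+ with no filter (1091 and 878) and only those groups (1217 and 976). They did so in WT with library-size scaling (73 and 39, against 317 and 117), no filter (189 and 63), only those groups (177 and 49) and DESeq2 (716 and 351), and in the male minus female effect with no filter (367 and 114) and DESeq2 (1107 and 821). Leaving out 1 library, the all-gene counts ran from 205 higher and 48 lower (without male WT replicate 4) to 1152 and 1000 (without female S64F/+ replicate 1) in the male minus female effect, and between the sexes in WT from 60 and 11 (without male WT replicate 4) to 460 and 183 (without female S64F/+ replicate 3). Between the sexes in S64F/+ they ran from 899 and 752 (without male S64F/+ replicate 3) to 2195 and 2103 (without female S64F/+ replicate 1), in females from 1368 to 2247 higher and 1530 to 2741 lower, and in males from 2268 to 2993 higher and 1688 to 2552 lower. Counting depth limits Adm, Car9 and Hk2 most, with 316, 540 and 715 counts over all libraries.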
